A study of Mus musculus with 6 samples.

Results

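The mouse genome holds a large set of genes whose symbols begin with Rnf and a number, for RING finger protein, and the liver transcripts of these genes were measured after the knockdown of 1 of their relatives, Rnf10. The set was taken by symbol: every gene named Rnf plus a digit was kept, and Rnf10 itself, Rnf43, Rnf213 and pseudogenes were dropped. It held 82 genes of the 55487 in the count table.

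Liver RNA was sequenced from 6 wild-type mice in 2 groups, 3 treated with GalNAc-siNC and 3 with GalNAc-siRnf10. The mice were male C57BL/6J animals per the study's methods, were kept on normal chow, received the conjugates by subcutaneous injection, and had their livers collected at the age of 17 weeks. GalNAc, a sugar bound by the asialoglycoprotein receptor of hepatocytes, carries the siRNA into these cells, and in GalNAc-siNC it is joined to a control siRNA. The study's methods name the Rnf10 conjugate GalNAc-siRnf10-2, the name used here. Each mouse gave 1 library, the same batch was recorded for all 6, and the receptor restricts delivery to hepatocytes, whereas the RNA came from whole liver.

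A RING finger is a zinc-binding fold with which a ubiquitin ligase holds a ubiquitin-conjugating enzyme close to a substrate, so that ubiquitin is passed from the enzyme to the substrate. In the RING-between-RING ligases the ubiquitin is first handed to a cysteine of the ligase itself. The Rnf symbol marks the fold and not a shared ancestry, and the genes it names act at membranes of the endoplasmic reticulum, lysosome and endosome, on chromatin, in innate immune signalling and in the cytosol.

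The libraries of the GalNAc-siNC group held 28430868 to 33058645 counts and those of the GalNAc-siRnf10-2 group 26854377 to 31621131, and 14046 genes passed the filter on low counts and were tested. All 6 hepatocyte markers followed (Alb, Apoa1, Ttr, Apob, Cps1 and Tat) were expressed in every library, and albumin alone took 3.72% to 4.36% of the counts with GalNAc-siNC and 5.93% to 6.08% with GalNAc-siRnf10-2. The level used throughout to compare genes with each other is FPKM, the count per kilobase of gene model scaled to the size of the normalized library. Normalized counts, scaled to a library of mean size, were used to compare mice.

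The targeted gene was lower in every treated mouse. Rnf10 stood at 17.3, 20.2 and 18.02 FPKM in the GalNAc-siNC group and at 7.8, 8.1 and 8.0 FPKM in the GalNAc-siRnf10-2 group. Its mean normalized count was 57.0% lower, a log2 fold change of -1.22 (SE 0.0715, adjusted p = 3.29e-09 in edgeR's quasi-likelihood fit, with Benjamini and Hochberg's adjustment over all genes tested). Among the Rnf genes ordered by level with Rnf10 included, Rnf10 was in place 9 in the GalNAc-siNC group and in place 23 in the GalNAc-siRnf10-2 group.

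The other Rnf genes together contributed far more transcript than Rnf10. The 82 genes summed to 502, 513 and 511 FPKM in the 3 GalNAc-siNC-treated mice and to 495, 486 and 497 FPKM in the 3 GalNAc-siRnf10-2-treated mice, so the sums of the groups did not overlap. The groups also did not overlap for 32.8% of all single genes tested. The sum was not recomputed with other scalings of the libraries. The means were 509 ± 5.80 FPKM (SD, n = 3 mice) and 493 ± 5.96 FPKM (SD, n = 3). Rnf10 made up 3.51 ± 0.252% of the sum of these genes and itself in the GalNAc-siNC group and 1.59 ± 0.0510% in the GalNAc-siRnf10-2 group.

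Of the 82 genes, 64 passed the filter and were tested, and 18 did not. Of those 18, 4 had no count in any mouse (Rnf112, Rnf182, Rnf212b and Rnf224), and the other 14 reached at most 22 counts in a mouse and at most 0.104 FPKM on average. The gene with 22 counts was Rnf225, which had 22, 6 and 21 counts in the GalNAc-siNC group and 5, 2 and 6 in the GalNAc-siRnf10-2 group. Several genes of the untested set are known from testis, brain or muscle, among them Rnf17 and Rnf212 of germ cells and Rnf207 of the heart. A count of 0 leaves room for up to 3 counts in a library if counts are independent. This limit covers counting error only and would be wider if both mates of a pair were counted. A count of 0 does not show that a gene is silent in every liver cell.

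Rnf187, a coactivator of the transcription factor c-Jun, had the highest level, at 49.2 ± 4.31 FPKM (SD, n = 3) in the GalNAc-siNC group and 45.8 ± 1.08 FPKM in the GalNAc-siRnf10-2 group. In the GalNAc-siNC group it was followed by Rnf128, Rnf5, Rnf149 and Rnf181, whereas in the GalNAc-siRnf10-2 group the order was Rnf5, Rnf128, Rnf181 and Rnf149. Rnf128, known as GRAIL for its part in T cell anergy, was at 26.96 ± 1.33 and 27.9 ± 1.15 FPKM. Rnf5, a ligase of the endoplasmic reticulum membrane, was at 25.7 ± 5.84 and 29.9 ± 0.606 FPKM. Rnf149, a membrane ligase of the protease-associated type, was at 24.0 ± 1.18 and 23.1 ± 0.205 FPKM, and Rnf181, a small cytosolic ligase, at 23.4 ± 1.55 and 26.9 ± 0.858 FPKM. In the GalNAc-siNC group every mouse had more Rnf187 than any of these, whereas the values of neighbours in the order from Rnf128 to Rnf181 overlapped. Ordered by counts scaled to library size alone, without the length of the gene, only 2 of these 5 genes remained among the first 5, and Rnf13, Rnf103 and Rnf11 took the other places. A level above 5 FPKM was reached by 29 of the 82 genes and a level above 1 FPKM by 53, and the median of the 64 tested genes was 4.74 FPKM beside 2.50 FPKM for all genes tested.

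**Figure D1:**
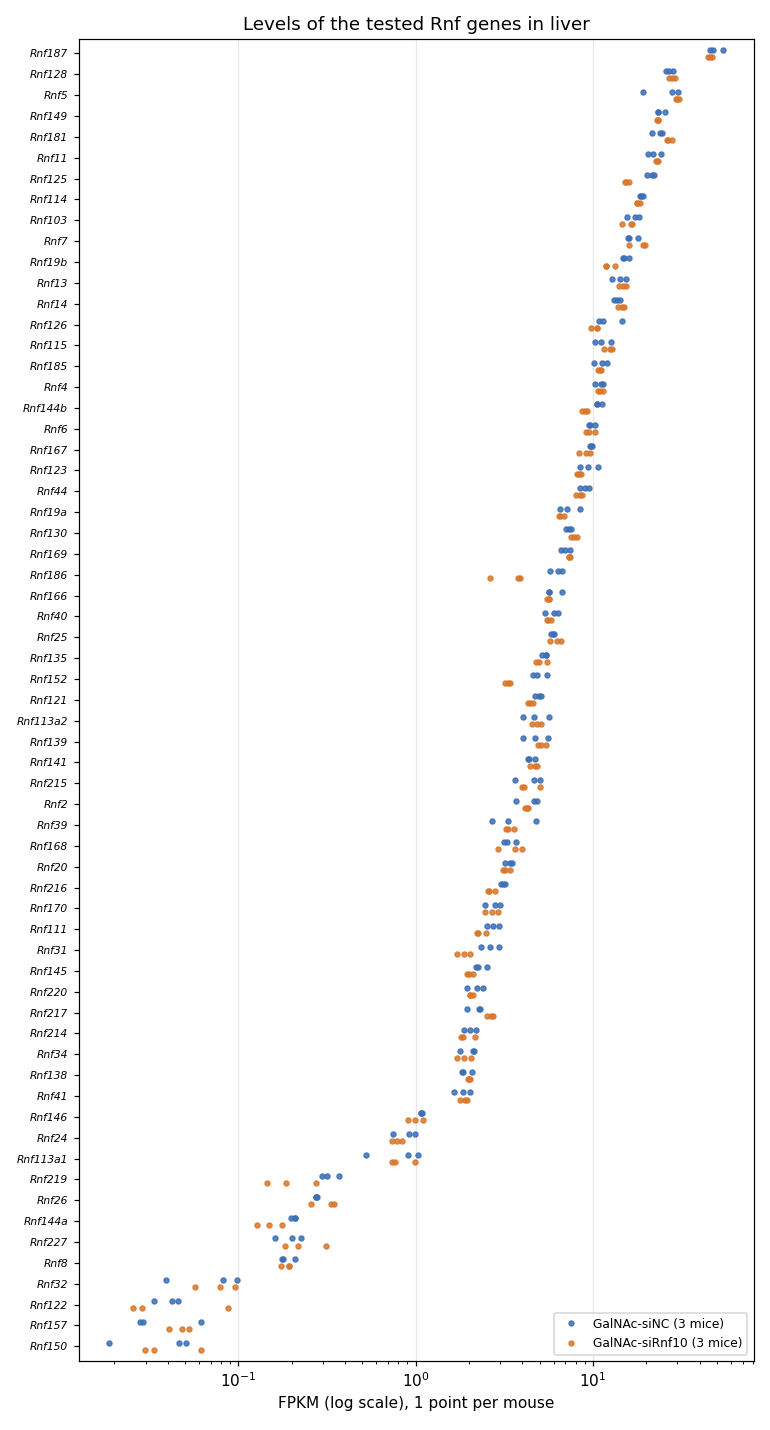
FPKM of 63 of the 64 tested Rnf genes on a log axis, with 1 point per mouse, blue for GalNAc-siNC and orange for GalNAc-siRnf10-2 (3 mice each), ordered by mean level. The levels run from Rnf187 at the top to Rnf150 and Rnf157 at the bottom, and the mice of a gene lie close together next to the distance between genes, except for the lowest genes, whose points spread.

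The comparison of the groups asked whether other RING finger genes differed in expression when Rnf10 was lowered. At an adjusted p under 0.05, 8 of the 64 tested genes (12.5%) were called, beside 14% of all genes tested, so the share was near the background. Of these, 7 genes (10.9%) were lower after GalNAc-siRnf10-2, beside 7.28% of all genes, and 1 gene (1.56%) was higher, beside 6.71% of all genes. The lower genes included Rnf152, Rnf125, Rnf186, Rnf31, Rnf19b and Rnf144b, and the higher gene was Rnf217. In whole liver a lower count from fewer cells of a type and a lower count from less RNA per cell cannot be told apart.

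Most differences of the 64 genes were small. The median log2 fold change of the 64 genes was -0.055, beside 0.0022 for all genes tested, and 38 of the 64 (59.4%) were below 0, beside 49.7% of all genes. The median absolute log2 fold change was 0.10 for the Rnf genes and 0.18 for all genes. The tested Rnf genes also had a higher median level, 4.74 FPKM beside 2.50 FPKM. The part of level in the smaller changes was not tested. None of the 8 called genes had an absolute log2 fold change of 1 or more, and 227 of the 1965 called genes of the whole table did. With only 8 genes these counts do not set the called Rnf genes apart. Over all called genes the median absolute log2 fold change was 0.45. Of the called Rnf genes, Rnf144b at -0.26 was the smallest in size and Rnf186 at -0.86 the largest. At an unadjusted p under 0.05 there were 14 Rnf genes (21.9%), beside 26.7% of all genes, and 12 of them (18.8%) were lower, beside 13.8% of all genes. The values of the groups did not overlap for 20 of the 64 genes (31.2%), 17 lower and 3 higher, beside 32.8% of all genes tested.

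**Figure D2:**
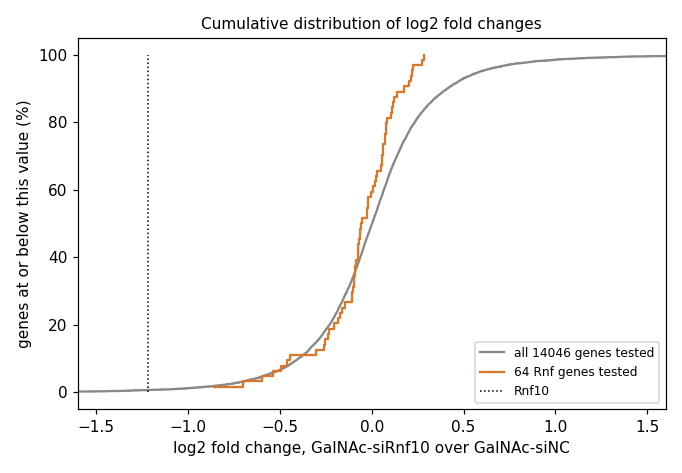
Cumulative share, in percent, of genes at or below each log2 fold change of GalNAc-siRnf10-2 over GalNAc-siNC, for the 64 tested Rnf genes (orange) and all 14046 genes tested (grey), with Rnf10 as a dotted line. The Rnf genes rise more steeply around 0 than all genes, with a median of -0.055 beside 0.0022, and no Rnf gene reaches the value of Rnf10, -1.22.

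Of the 56 genes that were not called, 46 had a 95% interval of the log2 fold change that lay within 0.5 of 0 on either side. The interval of the other 10 reached beyond 0.5, and 9 of those had a mean normalized count below 100. For these low genes a difference of that size was not detectable at this depth. The median coefficient of variation of the tested Rnf genes among the 3 GalNAc-siNC-treated mice was 8.16%.

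Membrane ligases with a protease-associated domain, a transmembrane segment and a RING (the PA-TM-RING ligases) turn over cargo of endosomes and lysosomes. None of the 6 tested genes was called by edgeR, DESeq2 or limma voom, 0 had an unadjusted p under 0.05 in edgeR, and their median log2 fold change was 0.055. Rnf13, an endolysosomal ligase tied to the endoplasmic reticulum stress sensor IRE1, had normalized counts of 4586, 3787 and 4205 in the GalNAc-siNC group and of 4559, 4181 and 4368 in the GalNAc-siRnf10-2 group. These values overlapped, and the log2 fold change was 0.059 (95% interval -0.09 to 0.21, adjusted p = 0.654 in edgeR's quasi-likelihood fit). Rnf128 was at 0.051 and Rnf149 at -0.056 on the log2 scale, and neither was called. The log2 fold changes of Rnf167, Rnf130 and Rnf150 were -0.11, 0.10 and 0.12.

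Among the 12 tested ligases with other kinds of membrane anchor, 2 (16.7%) were called, Rnf152 and Rnf186, beside 14% of all genes tested. Both were lower, beside 7.28% of all genes tested that were called lower. Rnf152 (ENSMUSG00000047496, GRCm38 chromosome 1, minus strand, 105276914 to 105356710) encodes a ligase of the lysosomal membrane that modifies the small GTPase RagA in nutrient signalling to mTOR. In normalized counts it was at 1395, 1170 and 1232 in the GalNAc-siNC group and 835, 861 and 810 in the GalNAc-siRnf10-2 group. Every treated mouse lay below every control mouse, and the means were 1265 ± 116 (SD, n = 3) and 836 ± 25.5 (SD, n = 3), a difference of 34.0%. The log2 fold change was -0.60 (SE 0.0833, adjusted p = 8.64e-05 in edgeR's quasi-likelihood fit), the smallest adjusted p among the Rnf genes. The exons of Rnf152 share 368 bases with Gm17634, an antisense gene with a mean normalized count of 44.1 in the GalNAc-siNC group and 49.7 in the GalNAc-siRnf10-2 group.

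Rnf186 (ENSMUSG00000070661, plus strand of chromosome 4 from 138967112 to 138968360) encodes a ligase of the endoplasmic reticulum membrane that is best known from the intestinal epithelium. Its normalized counts were 212, 235 and 249 with GalNAc-siNC and 97.2, 144 and 141 with GalNAc-siRnf10-2. The groups did not overlap, and the mean of 232 ± 18.5 (SD, n = 3) compared with 127 ± 26.2 (SD, n = 3), 45.1% lower. Its log2 fold change of -0.86 (SE 0.159, adjusted p = 0.00129 in edgeR's quasi-likelihood fit) was the largest in size among the 64 Rnf genes.

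The other membrane ligases were not called. Rnf103, a ligase of the endoplasmic reticulum, had normalized counts of 3562, 3055 and 3373 against 3234, 2870 and 3232, which overlapped, with a log2 fold change of -0.098. Rnf5 had 842, 1224 and 1330 against 1311, 1346 and 1294, and the value of 842 in the first GalNAc-siNC-treated mouse stood apart from the other 5. Its log2 fold change was 0.22 with all mice and 0.043 without that mouse. Rnf139 and Rnf145, which share the degradation of the cholesterol-synthesis enzyme HMG-CoA reductase, had log2 fold changes of 0.11 and -0.20. Rnf185, the partner of Rnf5, was at -0.023 and Rnf170, a ligase for the inositol trisphosphate receptor, at -0.028.

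**Figure D3:**
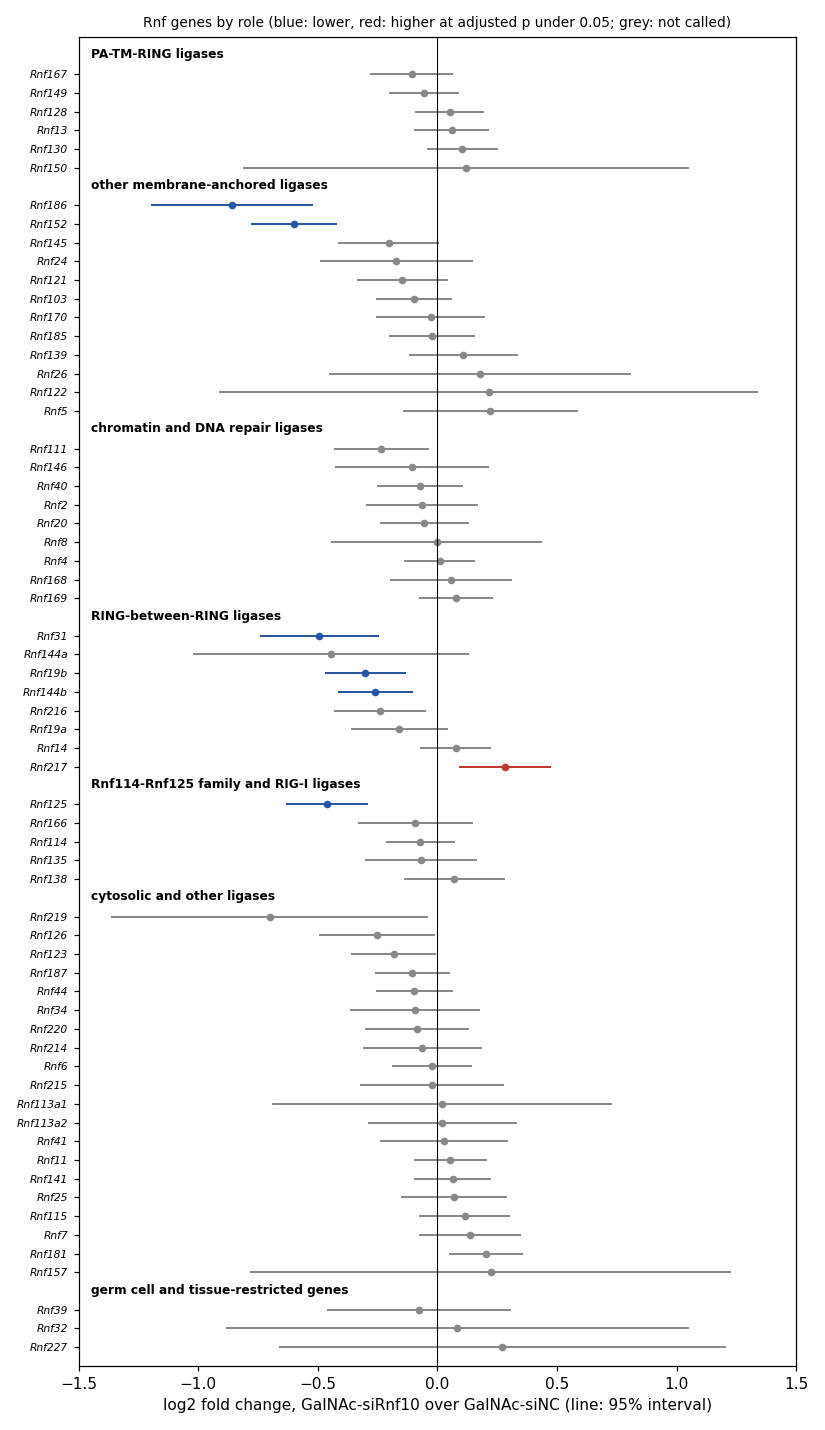
Log2 fold change of GalNAc-siRnf10-2 over GalNAc-siNC with its 95% interval for 63 of the 64 tested Rnf genes, grouped by role, with 3 mice per group. Blue marks 6 genes called lower and red the 1 called higher at an adjusted p under 0.05, and most of the grey genes sit close to 0.

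Of the 8 tested RING-between-RING ligases, 4 were called (50%), beside 14% of all genes tested. Of these, 3 were lower (Rnf31, Rnf19b and Rnf144b) and 1 was higher (Rnf217). The median log2 fold change of the 8 was -0.25, beside -0.055 for all Rnf genes. Without the first GalNAc-siRnf10-2-treated mouse none of the 4 was called, and without the second only Rnf31 was. The calls over all genes fell from 1965 to 1053 and 1128 in these fits. Rnf31 (ENSMUSG00000047098, plus strand of chromosome 14 from 55591708 to 55603693) encodes HOIP, the catalytic subunit of the complex that builds linear ubiquitin chains in NF-kB signalling. Its normalized counts were 448, 501 and 400 in the GalNAc-siNC group and 293, 346 and 317 in the GalNAc-siRnf10-2 group. These did not overlap, and the means were 450 ± 50.6 and 319 ± 26.7 (SD, n = 3 each), a difference of 29.2%. The log2 fold change was -0.49 (SE 0.116, adjusted p = 0.00788 in edgeR's quasi-likelihood fit). Without the first GalNAc-siRnf10-2-treated mouse the adjusted p was 0.0643, and over all 16 alternatives it ran from 0.000558 to 0.0643. Rnf31 shares 123 exonic bases, 2.1% of its exons, on the same strand with Irf9, so counts in that stretch cannot be assigned to either gene with certainty. Irf9, an interferon response factor, was itself lower (log2 fold change -0.30, adjusted p = 0.0176 in the same fit).

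Rnf19b (ENSMUSG00000028793, plus strand of chromosome 4 from 129058271 to 129085886) encodes a ligase first known from natural killer cells. The mice stood at normalized counts of 1252, 1356 and 1283 against 1012, 1009 and 1135, with no overlap between groups. The means were 1297 ± 53.7 and 1052 ± 72.2 (SD, n = 3 each), and the log2 fold change was -0.30 (SE 0.0780, adjusted p = 0.0148 in edgeR's quasi-likelihood fit). The call was lost without the first or without the second GalNAc-siRnf10-2-treated mouse, where the adjusted p was 0.106 in both cases, at the upper end of a range from 0.00103 to 0.106 over 16 alternatives.

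Rnf144b (ENSMUSG00000038068, plus strand of chromosome 13 from 47122656 to 47247991) is a target gene of p53. The normalized counts of its transcript were 1654, 1537 and 1537 in the GalNAc-siNC group and 1353, 1272 and 1328 in the GalNAc-siRnf10-2 group. The groups stood apart, with means of 1576 ± 67.5 and 1318 ± 41.7 (SD, n = 3 each) and a log2 fold change of -0.26 (SE 0.0715, adjusted p = 0.0216 in edgeR's quasi-likelihood fit). Leaving out any of the 3 GalNAc-siRnf10-2-treated mice ended the call, with an adjusted p of 0.0804, 0.137 and 0.0929 without the first, second and the third, and the range over 16 alternatives was 0.00558 to 0.137. Its paralog Rnf144a, at 45.3, 43.3 and 45.5 normalized counts against 38.4, 32.5 and 27.7, had a log2 fold change of -0.44 (95% interval -1.02 to 0.13) and was not called.

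Rnf217 (ENSMUSG00000063760, minus strand of chromosome 10 from 31493193 to 31609184), a ligase for the iron exporter ferroportin, was the only Rnf gene called higher. Its normalized counts were 750, 636 and 740 in the GalNAc-siNC group and 823, 871 and 892 in the GalNAc-siRnf10-2 group. The groups did not overlap, and the means were 709 ± 62.8 and 862 ± 35.6 (SD, n = 3 each). The log2 fold change was 0.28 (SE 0.0884, adjusted p = 0.0424 in edgeR's quasi-likelihood fit). The call held without the first GalNAc-siNC-treated mouse and was lost when any other mouse was left out, with adjusted p-values from 0.0586 to 0.180 in edgeR, and with upper quartile scaling, at 0.0537. Over 16 alternatives the range was 0.00556 to 0.180. Of the remaining genes of the group, Rnf216 (Triad3) was at -0.24, Rnf19a (Dorfin) at -0.16 and Rnf14, an androgen receptor coactivator, at 0.077 on the log2 scale.

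**Figure D4:**
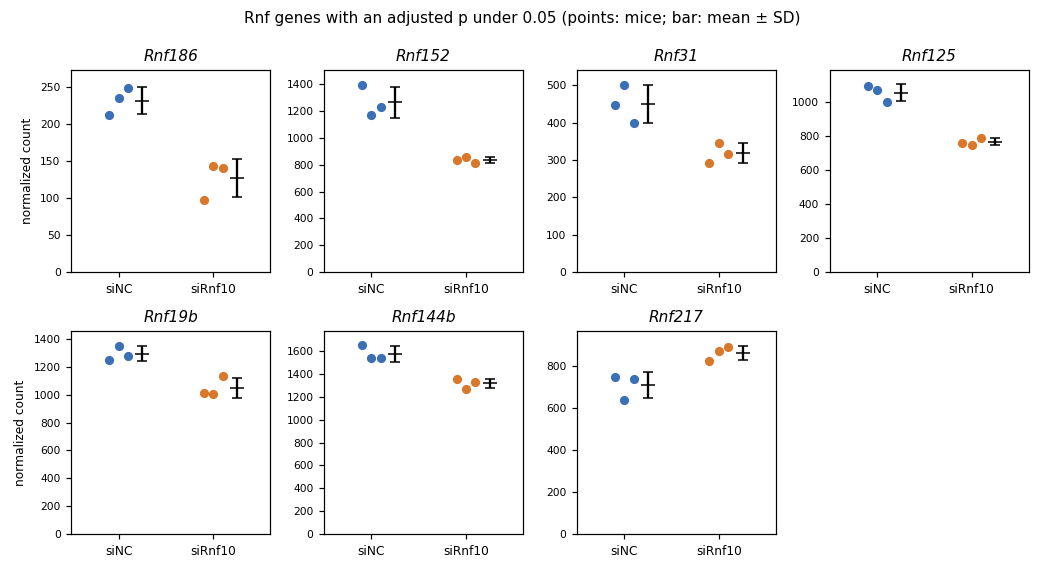
Normalized counts of 7 of the 8 Rnf genes with an adjusted p under 0.05, on axes that start at 0, with blue points for the 3 GalNAc-siNC-treated mice, orange points for the 3 GalNAc-siRnf10-2-treated mice and the mean ± SD beside them. In each panel the groups do not overlap, and the distance between them is largest relative to the level for Rnf186, where the treated mice are 45.1% lower.

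The promoter windows of 4 of the called genes are printed to show the kind of sequence these genes start from. Each is the 250 bases before the transcription start that RefSeq gives on GRCm38.p6, taken where that start lay within 100 bases of the annotated gene start, and CpG dinucleotides are in capitals. Rnf152 is chr1:105356711-105356960 on the minus strand, Rnf186 is chr4:138966869-138967118 on the plus strand, Rnf31 is chr14:55591492-55591741 on the plus strand and Rnf144b is chr13:47122470-47122719 on the plus strand.
Rnf152: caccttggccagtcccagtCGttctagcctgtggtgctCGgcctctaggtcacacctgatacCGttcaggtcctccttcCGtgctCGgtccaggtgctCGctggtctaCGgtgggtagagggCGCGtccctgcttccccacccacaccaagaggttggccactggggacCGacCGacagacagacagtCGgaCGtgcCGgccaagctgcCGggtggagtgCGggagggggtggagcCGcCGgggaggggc
Rnf186: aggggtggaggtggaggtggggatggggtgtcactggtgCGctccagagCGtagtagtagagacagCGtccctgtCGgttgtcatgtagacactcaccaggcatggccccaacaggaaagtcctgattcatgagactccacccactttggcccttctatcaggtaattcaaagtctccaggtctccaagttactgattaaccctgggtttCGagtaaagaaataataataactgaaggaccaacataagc
Rnf31: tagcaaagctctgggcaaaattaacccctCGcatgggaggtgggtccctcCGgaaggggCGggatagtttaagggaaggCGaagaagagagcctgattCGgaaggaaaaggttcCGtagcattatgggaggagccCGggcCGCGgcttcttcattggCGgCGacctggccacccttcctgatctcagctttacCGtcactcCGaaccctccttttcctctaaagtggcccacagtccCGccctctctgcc
Rnf144b: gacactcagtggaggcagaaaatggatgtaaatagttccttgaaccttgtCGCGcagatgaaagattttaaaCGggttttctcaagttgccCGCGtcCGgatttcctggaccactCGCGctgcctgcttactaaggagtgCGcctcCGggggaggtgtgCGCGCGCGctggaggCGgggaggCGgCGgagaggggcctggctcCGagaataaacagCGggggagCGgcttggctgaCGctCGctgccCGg

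These windows held 18, 5, 14 and 23 CpGs for Rnf152, Rnf186, Rnf31 and Rnf144b, with a GC content of 67.6%, 50.4%, 58.4% and 61.2%. Rnf186 stood out among the 4 by its few CpGs. Over all 80 RefSeq windows of 63 of the 82 Rnf genes the median was 15.5 CpGs, beside 6 over the 32851 windows of 27025 genes. Of 5 motifs searched on both strands, the GC box GGGCGG was found in 57.5% of the Rnf windows and in 32.7% of all windows, and Rnf31 held 2 of them. The CCAAT box (CCAAT) was in 35% of the Rnf windows and 33.8% of all, and Rnf31 held 1. The TATA box (TATAAA) was in 10% and 12.4%, the E-box CACGTG in 3.75% and 6.02%, and the D-box TTATGTAA in 0% and 0.819%. None of the 5 was found in the windows of Rnf152, Rnf186 and Rnf144b. A match describes the letters of a window and not a site that is bound.

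Of the 9 tested ligases that act on chromatin and in DNA repair, none was called by edgeR, DESeq2 or limma voom, 1 (Rnf111) had an unadjusted p under 0.05 in edgeR, and the median log2 fold change was -0.054. Rnf4, which recognises proteins tagged with SUMO, was at 2479, 2211 and 2404 normalized counts against 2310, 2377 and 2455, with a log2 fold change of 0.0094 (95% interval -0.13 to 0.15). Rnf2, the catalytic subunit of Polycomb repressive complex 1, was at -0.065. Rnf20 and Rnf40, partners in the ubiquitination of histones during transcription, were at -0.054 and -0.073, and Rnf8 and Rnf168, which act one after the other at DNA breaks, at -0.0033 and 0.056. Rnf111 (Arkadia), a ligase of TGF-beta signalling, had counts that did not overlap between groups, 773, 717 and 663 against 656, 591 and 586, but its adjusted p of 0.110 in edgeR's quasi-likelihood fit missed the threshold.

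The 5 ligases of the Rnf114 and Rnf125 family and of RIG-I signalling held 1 call (20%, beside 14% of all genes tested). It was lower, beside 7.28% of all genes tested that were called lower. Rnf125 (ENSMUSG00000033107) encodes a ligase that marks the RNA sensor RIG-I for degradation, and it lies on the plus strand of chromosome 18 from 20944625 to 20983862. Its normalized counts were 1097, 1075 and 1001 in the GalNAc-siNC group and 761, 752 and 791 in the GalNAc-siRnf10-2 group. The 2 groups stood well apart, with means of 1057 ± 50.2 and 768 ± 20.4 (SD, n = 3 each), a difference of 27.4%. The log2 fold change was -0.46 (SE 0.0791, adjusted p = 0.000654 in edgeR's quasi-likelihood fit). At 21.3 FPKM in the GalNAc-siNC group it was the most abundant of the called genes per length. Rnf135 (Riplet), which activates RIG-I, was at -0.069, and Rnf114, Rnf166 and Rnf138 were at -0.073, -0.092 and 0.070, none of them called.

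The median log2 fold change of the 21 tested cytosolic and other ligases was -0.023, and the abundant members of this group did not pass the test. Rnf187 had normalized counts of 2645, 3125 and 2768 against 2709, 2584 and 2646, with a log2 fold change of -0.10. Rnf181 had 1833, 2027 and 2085 against 2233, 2365 and 2244, so that every treated mouse was above every control mouse, with a log2 fold change of 0.20 and an adjusted p of 0.0671 in edgeR's quasi-likelihood fit. Corrected for GC content and gene length, the value was 0.17 and the adjusted p 0.0317, and the range over 16 alternatives was 0.0317 to 0.270. Rnf7, the RING partner of cullin 5, was at 0.14, Rnf126, which serves protein quality control with Bag6, at -0.25, and Rnf123, a ligase for the cell cycle inhibitor p27, at -0.18. Rnf219 had the largest difference of any gene not called, with 39.2, 48.5 and 41.5 normalized counts against 36.2, 19.1 and 24.5 and a log2 fold change of -0.70 (95% interval -1.36 to -0.04, adjusted p = 0.157 in edgeR's quasi-likelihood fit).

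Of the 12 genes of germ cells and other restricted tissues, 3 were tested. None was called by edgeR, DESeq2 or limma voom, and 0 had an unadjusted p under 0.05 in edgeR. Rnf227 was at 13.9, 12.4 and 9.90 normalized counts against 11.3, 13.4 and 19.2, which overlapped, with a log2 fold change of 0.27 and a 95% interval from -0.66 to 1.20. Rnf39 was at -0.077 and Rnf32 at 0.083. By position, chromosome 11 held most Rnf genes, 11 of the 82, and chromosome 4 held 9, Rnf186 and Rnf19b among them.

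Genes that work with the Rnf ligases were compared in the same test. Of the 3 subunits of the linear ubiquitin complex, 1 (33.3%) was called, Rnf31, beside 14% of all genes tested. Its partners Rbck1 (HOIL-1) and Sharpin were at -0.058 and 0.030 on the log2 scale. Of 18 genes of Polycomb repressive complex 1, in which Rnf2 is the ligase, 2 (11.1%) were called, beside 14% of all genes tested. Both were lower, beside 7.28% of all genes tested that were called lower. They were Cbx2, a reader of methylated histones, with a log2 fold change of -0.70, and Rybp, a subunit of variant complexes, with -0.39. None of 7 genes of histone ubiquitination around Rnf20 and Rnf40 and none of 10 genes of the Rnf8 and Rnf168 pathway was called by edgeR, DESeq2 or limma voom, and among both lists 1 gene, Mdc1 at -0.34, had an unadjusted p under 0.05 in edgeR. Of 22 genes of degradation at the endoplasmic reticulum, to which Rnf5, Rnf185, Rnf139 and Rnf145 belong, 3 (13.6%) were called, beside 14% of all genes tested. All 3 were lower, beside 7.28% of all genes tested that were called lower. These were Derl3 at -1.04, a derlin of the retrotranslocation channel, the ligase Syvn1 at -0.30 and its adaptor Sel1l at -0.28. Neither of the ubiquitin-activating enzymes Uba1 and Uba6, at -0.037 and -0.011, was called by edgeR, DESeq2 or limma voom, and 0 had an unadjusted p under 0.05 in edgeR.

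The cell types of the liver were followed by their markers beside these results. The 6 hepatocyte markers summed to 25503 to 26191 FPKM in the GalNAc-siNC group and to 37305 to 38593 FPKM in the GalNAc-siRnf10-2 group. Of these, 4 of 6 (66.7%) were called higher, beside 6.71% of all genes tested, among them Tat at a log2 fold change of 1.41. Apoa1 at 0.084 and Apob at -0.11 were not called. Of the 9 Kupffer cell and macrophage markers none was called by edgeR, DESeq2 or limma voom and 1 had an unadjusted p under 0.05 in edgeR, and their sums of 116 to 150 FPKM and 135 to 144 FPKM overlapped. Sinusoidal endothelial markers summed to 15.1 to 15.5 FPKM and 18.1 to 19.1 FPKM. Of these markers, 2 of 7 (28.6%) were called higher by edgeR, 1 was called by DESeq2 and 3 by limma voom. Stellate cell markers summed to 16.8 to 17.9 FPKM and 20.6 to 22.5 FPKM, with 3 of 7 (42.9%) called higher. The share called higher over all genes tested was 6.71%. Below 0 were 1 endothelial marker, Stab2 at -0.26, and 3 stellate markers, Lrat, Des and Hgf at -0.27, -0.20 and -0.031, none of them called by edgeR. Cholangiocyte markers summed to 39.0 to 40.2 FPKM and 21.4 to 21.9 FPKM, where 1 of 5 tested (20%), Spp1, was lower at -0.90. The share called lower over all genes tested was 7.28%. Spp1 held most of these counts, with a mean normalized count of 1836 in the GalNAc-siNC group and 982 in the GalNAc-siRnf10-2 group. Krt19, Krt7, Epcam and Sox9, at 28.1, 27.6, 23.2 and 131 in the GalNAc-siNC group, were not called. Their log2 fold changes were -0.20, -0.26, -0.15 and -0.54. Of the lymphocyte markers, relevant to Rnf19b and Rnf128, 2 of 7 were tested, with 0 called by the same 3 tools and 0 at an unadjusted p under 0.05, at sums of 0.877 to 0.967 FPKM and 0.738 to 1.27 FPKM. Of the neutrophil markers S100a9 alone was tested and was lower at -1.43, with sums of 2.26 to 4.36 FPKM and 1.21 to 1.46 FPKM. Of 5 erythroid markers 0 were called by these tools and 0 had an unadjusted p under 0.05, at sums of 213 to 321 FPKM and 256 to 289 FPKM. No marker of these lists was at 0 in every mouse, and the part of the makeup of cells in the Rnf values was not tested.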

How the data were processed

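Liver RNA of 3 GalNAc-siNC-treated and 3 GalNAc-siRnf10-2-treated mice was compared. The authors prepared stranded mRNA libraries, aligned the paired-end reads to GRCm38 by HISAT2, and deposited unnormalized counts for each gene together with the length of its model. The submitters' processing notes also name DESeq2. The counting tool, annotation release and strand setting are not given in the sources used here. Of the counts between 1 and 20, 62.7% to 64.8% were even in each library, and whether both mates of a pair were counted is not given either.

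Gene symbols, coordinates and exon overlaps came from GENCODE M21, which named 55227 of the 55487 identifiers, and promoter windows from RefSeq (GRCm38.p6). Counts were filtered with filterByExpr, scaled by TMM and tested with edgeR 4.0.16 (R 4.3.3), a robust quasi-likelihood fit with treatment as the only term and Benjamini-Hochberg adjustment over all 14046 genes tested, and a gene was called at an adjusted p under 0.05. FPKM was computed from these counts, the TMM library sizes and the deposited lengths. The procedure was tested on simulated data. The common biological coefficient of variation was 9.28%. The labels number separate mice, and p-values measure the spread between them, and an exact permutation test of 3 against 3 cannot go below 0.1.

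The Rnf genes, gene lists and tests were chosen with earlier results of these data known. Named were Rnf10, Rnf13, Rnf103 and Rnf187, every called Rnf gene, the 5 of highest mean FPKM, the 3 with the largest difference among those not called, and the most abundant gene of a role with none named. A called Rnf gene is not reported here by name. Called genes of the partner and family lists were named too, and further Rnf genes were added, with their values known, to describe each role. Alternatives were DESeq2 1.42.0, limma voom 3.58.1 with quality weights, RLE and upper quartile scaling, other filters, the replicate number as a block, offsets for GC content and gene length (splines with 5 degrees of freedom), other thresholds, and leaving out each mouse. Figures were drawn with matplotlib 3.10.9.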

Additional observations from a re-analysis of the deposited data

How the results depend on the processing

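The count of 8 called Rnf genes was the same 8 genes with DESeq2, limma voom, RLE scaling, no filter on low counts, at least 10 counts in every mouse, and counts halved and rounded, an alternative chosen after seeing the data. It was 7 with upper quartile scaling, where Rnf217 was lost, and 10 with offsets for GC content and length, where Rnf126 and Rnf181 were added. At an adjusted p under 0.01 it was 4, and with a log2 fold change of 0.5 or more in size also required it was 3. Leaving out 1 mouse gave between 3 and 10, with 3 without the first and 4 without the second GalNAc-siRnf10-2-treated mouse. The calls over all genes, 1965 with all mice, were 1053 and 1128 in these fits, and 2864 without the first GalNAc-siNC-treated mouse, where 10 Rnf genes were called. Rnf152, Rnf125 and Rnf186 were called in all 6 of these fits. Rnf225, which the filter removed with all mice, was called lower without the second GalNAc-siNC-treated mouse, and was not called with no filter on low counts.

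The median log2 fold change of the Rnf genes, -0.055, was -0.065 with upper quartile scaling, -0.067 with at least 10 counts in every mouse and -0.030 with GC and length offsets, and between -0.054 and -0.037 when 1 mouse was left out. The smallest differences changed sign: Rnf13 was at -0.011 without the second GalNAc-siNC-treated mouse, the low end of a range up to 0.13 over the 6 mice left out, and Rnf4 at -0.00091 with upper quartile scaling, -0.038 without the second GalNAc-siNC-treated mouse and -0.013 without the third GalNAc-siRnf10-2-treated mouse, the highest value with a mouse left out being 0.043. The cause was not tested. Rnf10 stayed between -1.27 and -1.08 in all 16 alternatives. Ranked by counts scaled to library size without length, 2 of the 5 most abundant Rnf genes remained.

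The labels number the mice and name no pairs. The deviations from the group means correlated between -0.036 and 0.037 over all pairs of mice. For mice of the same number the values were -0.00099, 0.027 and -0.034. No effect shared by same-numbered mice was seen, which does not show how the mice were numbered. With the replicate block 7 Rnf genes were called, without Rnf217 (log2 fold change 0.29, adjusted p = 0.0569 by edgeR), and with the replicate block and GC and length offsets together 9 were called, Rnf181 added, with a median log2 fold change of -0.029.

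Depth limits the 18 genes that the filter removed, at 22 counts or fewer in a mouse, and the low genes such as Rnf219, Rnf144a, Rnf227, Rnf150, Rnf122 and Rnf157, whose intervals are wide. Exon overlaps limit further genes. The largest shares were in Rnf146, where 70.2% of the exons lie opposite Echdc1, and in Rnf26, where 56.5% are shared with Gm49380 on the same strand. Smaller shares were found in other genes, among them Rnf149, with 24.9% shared with Gm15832 on the same strand. In Rnf5 24.7% lies opposite Gm20463, and in Rnf139 22.3% lies opposite Tatdn1.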

Other observations

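Other families of RING ligases and the conjugating enzymes they work with were read from the same test. Of 68 Trim genes, which join a RING to a B-box and a coiled coil, 37 were tested, and 13.5% of these were called, beside 14% of all genes tested. Trim24, a coregulator of nuclear receptors, rose by a log2 fold change of 0.59 (SE 0.0895), and Trim41 with 0.35 (SE 0.0947). Trim11, Trim14 and Trim2 were lower with -0.34, -0.38 and -0.29. None of the 8 tested March genes, membrane ligases with a variant RING, and none of the 3 tested Znrf genes was called by edgeR or DESeq2. In each family 1 gene had an unadjusted p under 0.05 in edgeR and was called by limma voom, March5 and Znrf2. Of 33 tested Ube2 genes, the conjugating enzymes, 1 was lower (3.03%, beside 7.28% of all genes tested): Ube2l6, the conjugating enzyme for the ubiquitin-like protein ISG15, with a log2 fold change of -0.30 (SE 0.0674). Its normalized count was 2731 ± 146 in the GalNAc-siNC group and 2210.3 ± 72.6 in the GalNAc-siRnf10-2 group (SD, n = 3 mice each).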
